A study of Pan troglodytes and Macaca mulatta with 12 samples.

Results

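UCHL1 was read at high levels in every rhesus macaque lymphoblastoid cell line and at a few counts in every chimpanzee line. UCHL1 is 1 of the 16903 genes in the exon count files. It was taken by its identifier, ENSG00000154277, and its count in a library is the sum over all exons that carry this identifier, with an exon missing from a file taken as 0. The gene was chosen by its measured counts in the lines of the 2 species, so the difference between the species is described here and is not tested.

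The data are RNA sequencing libraries of lymphoblastoid lines (immortalised B cells that keep growing in culture), made to compare gene expression between primates. The lines came from 6 chimpanzees (Pan troglodytes; 3 females and 3 males) and 6 rhesus macaques (Macaca mulatta; 2 females and 4 males), untreated and in the same medium, with 1 library for each line. Each group is therefore 6 immortalised lines grown in culture, and a difference between them can come from the animals or from the cultures. No age is given in the labels, and human lines named in the series design were not analysed here. The files carry gene identifiers without names, and 0 of the 16903 identifiers matched the gene name table at hand, so the B cell identity of the lines was not checked against markers. Library totals ran from 1434241 to 4751954 counts in chimpanzee and from 1801830 to 4600137 in rhesus macaque. Levels are given in CPM, the counts scaled to a common library size with TMM factors.

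UCHL1 encodes a small enzyme of the ubiquitin C-terminal hydrolase family, which frees ubiquitin from short adducts and precursors and binds free ubiquitin. It is best known as one of the abundant soluble proteins of neurons, and mutations in the human gene cause neurodegenerative disease. In the human B lineage it is known from germinal centre B cells and from B cells carrying Epstein-Barr virus, and in mice its forced expression leads to lymphoma.

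In the coordinates of the files, the gene runs on chromosome 4 from 40953685 to 40965202, with 8 exons that add up to 1586 bases. The sources used here do not give the genome build. No exon of another listed gene overlaps a UCHL1 exon or lies between its first and last base. An RNA antisense to the first part of the gene is known in mouse, and the library protocol marks no strand, so reads from the opposite strand cannot be told apart from reads of UCHL1.

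In chimpanzee replicates 1 to 6 UCHL1 had 12, 8, 1, 2, 35 and 2 counts. In rhesus macaque replicates 1 to 6 it had 712, 854, 850, 1367, 635 and 1848 counts. Together the chimpanzee libraries held 60 UCHL1 counts among 16206228, and the rhesus macaque libraries 6266 among 17739797. The totals of the 2 species thus differed far less than the UCHL1 counts.

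Scaled to library size, the chimpanzee lines stood at 8.37, 3.28, 0.375, 0.771, 14.1 and 0.393 CPM. The rhesus macaque lines stood at 434, 422, 424, 442, 168 and 400 CPM. No chimpanzee line came near a rhesus macaque line: the lowest rhesus macaque level was 11.9 times the highest chimpanzee level. The means were 4.55 ± 5.60 CPM in the chimpanzee lines and 382 ± 106 CPM in the rhesus macaque lines (SD, n = 6 each), which is 83.8-fold higher in rhesus macaque. On the log2 scale the fitted difference, chimpanzee minus rhesus macaque, was -6.50 with a standard error of 0.74. Without chimpanzee replicate 5, the highest of its species, it was -7.50, and the chimpanzee mean was 2.64 CPM. It stood 87th from the lowest among the 9440 genes with enough counts for testing. Libraries without overlap, with every chimpanzee library below, were seen for 13.8% of those genes, and nothing is read from UCHL1 being among them, since its levels chose it. In bulk RNA, fewer cells that express the gene and less RNA per cell cannot be told apart.

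**Figure D1:**
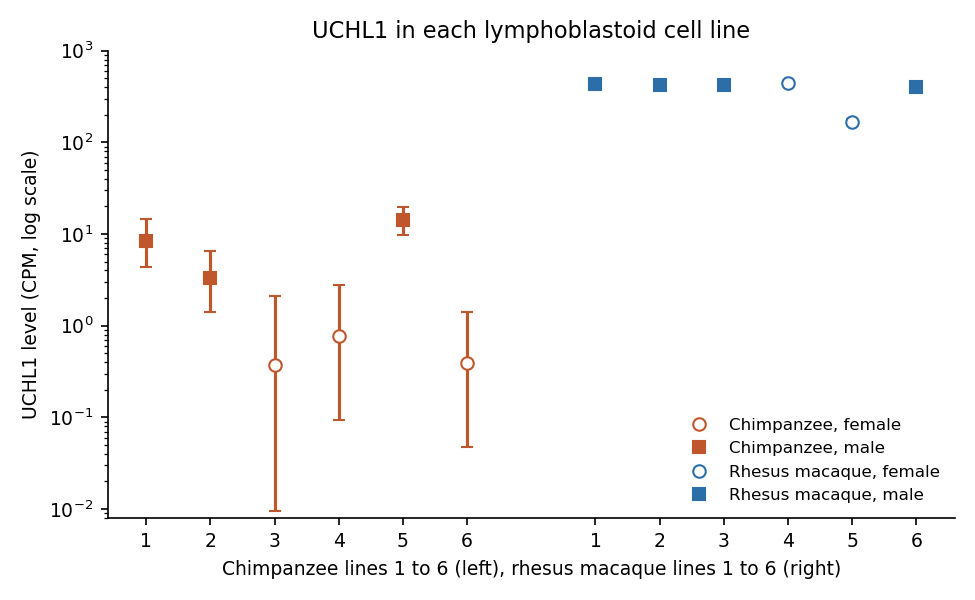
UCHL1 level in each line, in CPM on a log axis, with chimpanzee lines on the left and rhesus macaque lines on the right; bars are exact Poisson 95% intervals and cover counting error only. The chimpanzee lines lie between 0.375 and 14.1 CPM and the rhesus macaque lines between 168 and 442 CPM, with the 3 chimpanzee females (open circles) below the 3 chimpanzee males (squares).

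Set against other genes per length of listed exon, UCHL1 was a low gene in chimpanzee and an abundant one in rhesus macaque. It averaged 2.87 ± 3.53 CPM per kb in chimpanzee (SD, n = 6), where the median over all 16903 genes was 7.03 CPM per kb and 40.9% of genes stood lower. In rhesus macaque it averaged 241 ± 66.6 CPM per kb (SD, n = 6), against a median of 6.36, with 96.9% of genes lower. By this measure it ranked 9985th of the genes in chimpanzee and 519th in rhesus macaque.

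The spread between lines differed in kind between the species. In chimpanzee the highest line, replicate 5, was 37.6 times the lowest, replicate 3, and the SD of log2 CPM was 1.63, larger than that of 97.7% of the tested genes. The lowest chimpanzee values rest on 1 or 2 counts, and for replicate 3 the exact Poisson 95% interval runs from 0.00950 to 2.09 CPM. The intervals of replicates 1 and 5, from 4.33 to 14.6 CPM and from 9.84 to 19.6 CPM, lie wholly above it. In rhesus macaque 5 of the 6 lines agreed closely, between 400 and 442 CPM, and replicate 5 stood apart at 168 CPM. The rhesus macaque SD of log2 CPM was 0.55, larger than that of 65.3% of tested genes, and 0.055 without replicate 5, where 0.148% of tested genes had a smaller SD. Replicate 5 was left out because of its UCHL1 level, and the same line was left out for every other gene. Other genes thus kept outlying lines of their own, and that small share follows in part from the choice of line. The median SDs over the tested genes were 0.48 in the chimpanzee lines and 0.45 in the rhesus macaque lines. In the order of the 12 levels, every line's 95% interval overlapped that of the next, except between chimpanzee replicate 5 and rhesus macaque replicate 5 and between rhesus macaque replicates 5 and 6.

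The low chimpanzee level was seen along the whole gene. Exons are numbered 1 to 8 in the order of their coordinates. All 8 were read in all 6 rhesus macaque lines, and for each exon the smallest rhesus macaque count exceeded the largest chimpanzee count. The exons are parts of a gene chosen by these same counts, so this lack of overlap largely follows from that choice. In chimpanzee 7 of the 8 exons had at least 1 count, so reads of chimpanzee lines were assigned to nearly every exon of the gene. Replicates 1 and 5 each had counts on 6 exons.

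Exon 8, the last and with 442 bases the second longest, on chromosome 4 from 40964761 to 40965202, held most of the counts in both species. It had 7, 8, 0, 2, 24 and 1 counts in chimpanzee replicates 1 to 6. In rhesus macaque replicates 1 to 6 it had 392, 458, 440, 800, 320 and 806 counts. Every rhesus macaque count lay far above every chimpanzee count. Its summed level was 74.5 times as high in rhesus macaque, the smallest ratio among the exons with chimpanzee counts.

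Exon 2, the longest with 623 bases, from 40953889 to 40954511, had 1, 0, 1, 0, 3 and 1 counts in chimpanzee replicates 1 to 6. It had 131, 171, 158, 217, 87 and 314 counts in rhesus macaque replicates 1 to 6, a summed level 175 times that of chimpanzee. The counts again did not overlap between the species. Exon 3, from 40957421 to 40957571, had 6 counts in chimpanzee, 5 of them in replicate 5, and 747 in rhesus macaque, a 121-fold higher level.

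The short exons followed the same pattern. Exon 1, from 40953685 to 40953794, had 1 count in the chimpanzee lines and 244 in the rhesus macaque lines, and exon 7, from 40960877 to 40960935, had 1 in the chimpanzee lines and 219 in the rhesus macaque lines. Exon 4, from 40958489 to 40958574, had 2 counts in the chimpanzee lines and 324 in the rhesus macaque lines, and exon 6, from 40959999 to 40960065, had 2 in chimpanzee and 286 in rhesus macaque. Exon 5, of 48 bases from 40958650 to 40958697, was at 0 in chimpanzee and had 152 counts in rhesus macaque. Its level was at least 49.3-fold higher in rhesus macaque, taking 3 counts over the 6 chimpanzee libraries as the limit that a count of 0 allows. Over the 7 exons with chimpanzee counts the ratio ran from 74.5 to 237, and the upper end rests on a single chimpanzee count.

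**Figure D2:**
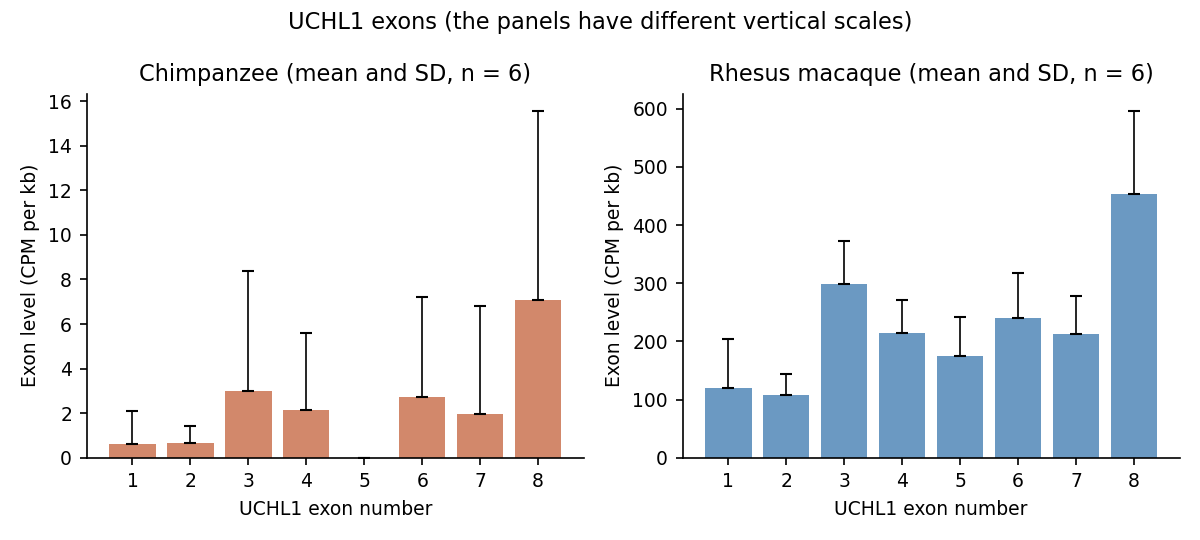
Level of each UCHL1 exon in CPM per kb, chimpanzee left and rhesus macaque right; bars are means and whiskers 1 SD over 6 lines, and the vertical scales differ. Exon 8 is the highest in both panels, at 7.10 CPM per kb in chimpanzee and 453 in rhesus macaque, and exon 5 is at 0 in chimpanzee.

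Coverage per kb was uneven along the gene. In rhesus macaque it ran from 108 ± 36.3 CPM per kb on exon 2 to 453 ± 143 on exon 8 (SD, n = 6), a 4.19-fold range between exons of 1 gene. The share of UCHL1 counts on exon 8 was 70% in chimpanzee (42 of 60 counts summed over the lines, Wilson 95% interval from 57.5% to 80.1%). In rhesus macaque it was 52.2% ± 5.05 (SD, n = 6), with lines from 43.6% to 58.5%. Of the 60 chimpanzee counts 35 come from 1 line, replicate 5, in which exon 8 held 24 of 35, with an interval from 52.0% to 81.4% that overlaps the rhesus macaque range. Whether the lines of the 2 species use the exons differently cannot be read from these chimpanzee counts.

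Among rhesus macaque lines, which are read deeply enough, the exon shares were not all alike. Exon 1 held 3.93%, 2.34%, 3.29%, 0.951%, 3.15% and 7.31% of UCHL1 counts in rhesus macaque replicates 1 to 6. Replicate 6 was the highest, with 135 of 1848 counts and a Wilson 95% interval from 6.21% to 8.58%. Replicate 4 was the lowest, with 13 of 1367 counts and an interval from 0.557% to 1.62%. The same pair of lines stood at the other ends for exon 8, with 43.6% in replicate 6 and 58.5% in replicate 4, although their UCHL1 levels were close, 400 and 442 CPM. Replicate 5, the line with the low level, was not set apart in these 2 shares, at 3.15% on exon 1 and 50.4% on exon 8. It had the lowest share on exon 2, 13.7% against 15.9% to 20.0% in the other lines. These intervals cover counting error alone, as the reads have no molecular identifiers, and the exon shares of a line are parts of 1 sum.

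**Figure D3:**
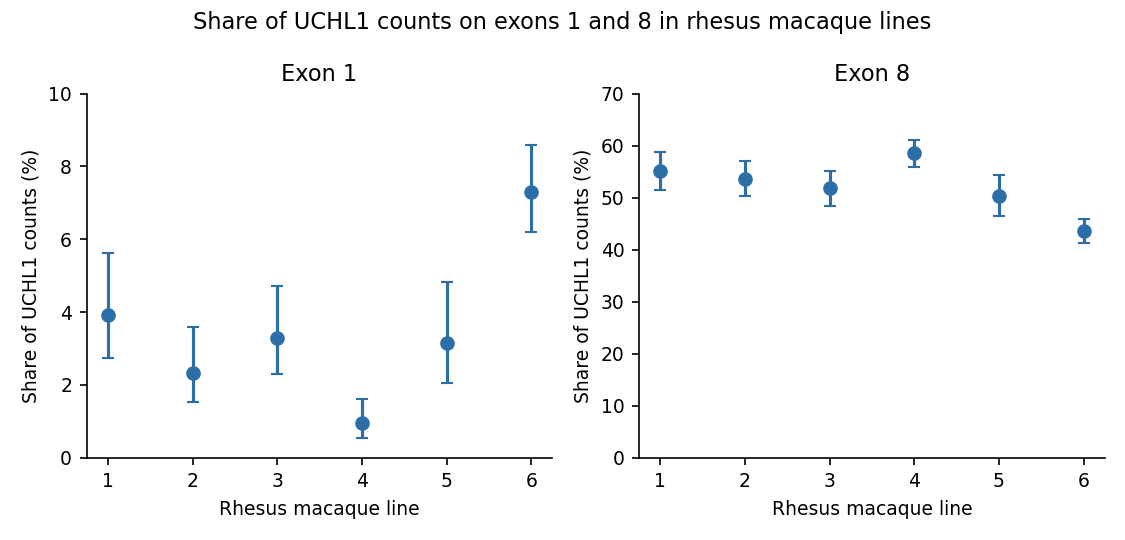
Share of UCHL1 counts on exon 1 (left) and exon 8 (right) in each rhesus macaque line, in percent, with Wilson 95% intervals. Line 6 has the highest share on exon 1 (7.31%) and the lowest on exon 8 (43.6%), and line 4 the reverse (0.951% and 58.5%).

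Within chimpanzee, the lines with more UCHL1 were the males. The 3 females had 0.375, 0.771 and 0.393 CPM, from 5 UCHL1 counts among 9871404. The 3 males had 8.37, 3.28 and 14.1 CPM, from 55 counts among 6334824. Females and males did not overlap, and the lowest male was 4.26 times the highest female. The means were 0.513 ± 0.223 CPM in females and 8.59 ± 5.43 CPM in males (SD, n = 3 each). Of all tested genes, 5.67% likewise had every chimpanzee male above every chimpanzee female.

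The log2 difference, female minus male, was -4.02 with a standard error of 0.66. It did not pass the test (edgeR quasi-likelihood test, Benjamini-Hochberg adjusted p = 0.383, unadjusted p = 4.38e-05), although its unadjusted p was the smallest of the 9440 genes tested. UCHL1 entered those 9440 genes through its rhesus macaque counts, as its chimpanzee counts alone were too few for the filter. The gene was chosen with these chimpanzee counts known, so neither its rank nor a pass is separate support for a sex difference. The edgeR test called 0 genes (0%) for sex in chimpanzee. At an unadjusted p under 0.05 there were 654 genes (6.93%), and DESeq2 called 50. With DESeq2's Wald test UCHL1 passed, at a log2 difference of -4.16 (adjusted p = 0.00254). Without chimpanzee replicate 2, the lowest male, it also passed with edgeR (log2 difference -4.43, adjusted p = 0.0266). Leaving out the male nearest to the females widens the gap by itself. With any other chimpanzee line left out it did not pass (edgeR adjusted p from 0.100 to 0.815). Among the chimpanzee lines 2 carry names that begin with AG, both of them female, and the other 4 carry names that begin with S, so sex goes partly together with the naming of the lines, and its part was not tested.

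In rhesus macaque UCHL1 did not follow sex. The 2 females had 442 and 168 CPM, and the 4 males had 434, 422, 424 and 400 CPM. The female lines lie at both ends of the range, 1 above all males and 1 below them. The log2 difference, female minus male, was -0.46 with a standard error of 0.45 and did not pass (edgeR adjusted p = 1, unadjusted p = 0.32). Without replicate 5 it was 0.074, so its direction rests on that line. The edgeR test called 0 genes (0%) for sex in rhesus macaque, with 206 (2.18%) at an unadjusted p under 0.05 and 3 called by DESeq2.

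The sex difference of UCHL1 in chimpanzee less that in rhesus macaque was -3.56 on the log2 scale with a standard error of 0.79, and it did not pass either (edgeR adjusted p = 0.682, unadjusted p = 0.000664). For this contrast edgeR called 0 genes (0%), 479 (5.07%) had an unadjusted p under 0.05 and DESeq2 called 12. The species difference of UCHL1 was large within the males alone, at -5.59 on the log2 scale with a standard error of 0.50.

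The genes next to UCHL1 were taken by position, the 5 listed genes before it and the 5 after it on chromosome 4 of the files. In RefSeq's chimpanzee annotation (NHGRI_mPanTro3-v2.0_pri) UCHL1 lies between APBB2, which codes for an adaptor protein that binds the amyloid precursor protein, and LIMCH1, which codes for an actomyosin-binding protein. The identifiers in the files are not paired with these names, so the neighbours are given by position. Of the 10 neighbours 4 had enough counts for the species test, and 1 of the 4 was called, higher in chimpanzee. Of all 9440 tested genes 48.2% were called, with 24.7% of the 9440 higher and 23.5% lower in chimpanzee. None of the 4 was called lower in chimpanzee, the direction of UCHL1. The median log2 difference was 0.45 over the 4 tested neighbours and 0.041 over all 9440 tested genes.

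The gene called was ENSG00000163694, with 8 listed exons from 40120029 to 40326640, whose last listed base is 627 kb before UCHL1. It had 142, 42.7, 101, 89.8, 97.3 and 43.4 CPM in chimpanzee replicates 1 to 6. In rhesus macaque replicates 1 to 6 it had 15.9, 20.7, 44.9, 4.85, 5.28 and 14.9 CPM. The chimpanzee lines were higher, apart from chimpanzee replicates 2 and 6, which lay just below rhesus macaque replicate 3. The log2 difference was 2.29 ± 0.51 (standard error) and passed the test (edgeR adjusted p = 0.0021).

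The nearest gene before UCHL1 with more than 1 exon was ENSG00000163697, with 17 listed exons from 40510996 to 40911245, ending 42.4 kb before it. It had 61.4, 22.1, 7.13, 7.71, 55.3 and 2.75 CPM in chimpanzee replicates 1 to 6. In rhesus macaque replicates 1 to 6 it had 72.0, 62.2, 19.4, 81.5, 44.9 and 109.7 CPM. The species overlapped, and the means were 26.1 ± 25.9 CPM in the chimpanzee lines and 64.9 ± 31.0 CPM in the rhesus macaque lines (SD, n = 6 each). The log2 difference of -1.35, with a standard error of 0.65, did not pass (edgeR adjusted p = 0.102). It passed without chimpanzee replicate 1 or 5, at -1.79 and -1.77 (edgeR adjusted p = 0.0437 and 0.0445), the 2 chimpanzee lines highest in both this gene and UCHL1. It also passed with sex as a covariate, at -1.67 (edgeR adjusted p = 0.0335), and was -0.51 with males only (edgeR adjusted p = 0.527).

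This gene and UCHL1 were high and low in the same chimpanzee lines. In both, replicates 1, 2 and 5, the males, stood above replicates 3, 4 and 6, the females. The gene averaged 5.86 ± 2.71 CPM in chimpanzee females and 46.3 ± 21.1 CPM in males (SD, n = 3 each), and the lowest male was 2.87 times the highest female. The log2 difference, female minus male, was -3.01 with a standard error of 0.65 and did not pass (edgeR adjusted p = 0.383, unadjusted p = 0.000515). With DESeq2's Wald test it passed, at -3.02 (adjusted p = 0.00254). It was the 1 of the 4 tested neighbours with an unadjusted p under 0.05 for sex in chimpanzee, and its p ranked 10th of the 9440 genes. This neighbour was singled out after its values were seen. In rhesus macaque its level did not go with UCHL1: replicate 3, the lowest in this gene at 19.4 CPM, had 424 CPM of UCHL1, and replicate 5, the lowest in UCHL1, had 44.9 CPM of this gene.

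**Figure D4:**
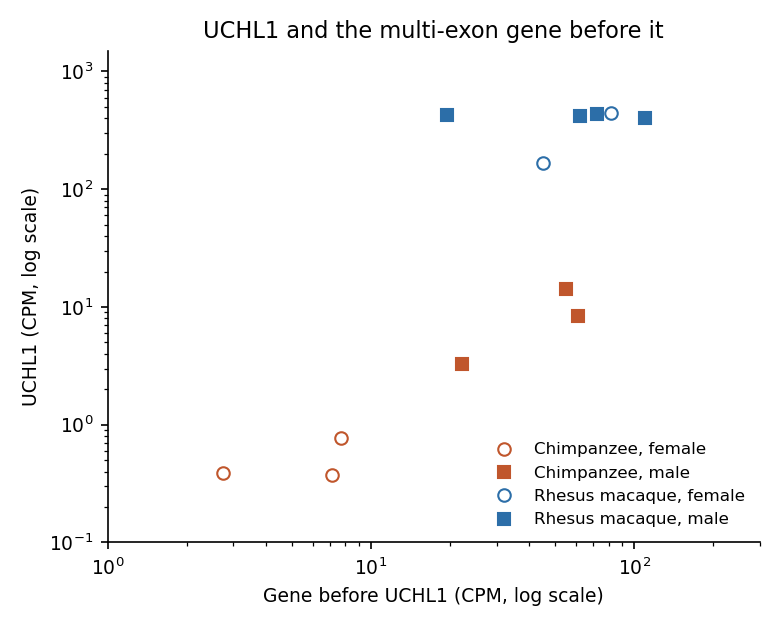
UCHL1 (vertical) against the gene that ends 42.4 kb before it (horizontal), both in CPM on log axes, 1 point per line; squares are males and open circles females. The 3 chimpanzee males lie above and to the right of the 3 chimpanzee females, and 5 rhesus macaque lines lie between 400 and 442 CPM of UCHL1 over a range from 19.4 to 109.7 CPM of the neighbour.

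On the other side, the nearest gene after UCHL1, with 17 listed exons from 41295694 to 41395746 and 330 kb away, was barely read. It had 0, 1, 1, 0, 2 and 0 counts in chimpanzee replicates 1 to 6 and 11, 2, 2, 28, 1 and 3 counts in rhesus macaque replicates 1 to 6. These counts were too few for the main test. With no filter on low counts the gene was called lower in chimpanzee, the direction of UCHL1 (log2 difference -3.36, edgeR adjusted p = 0.0175). The high UCHL1 level of the rhesus macaque lines thus stood beside a gene with at most 9.05 CPM in any of them.

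Neither well-read gene after UCHL1 was called. The gene from 41631926 to 41652580, with 7 listed exons, had 46.0 ± 21.7 CPM in the chimpanzee lines and 39.6 ± 8.72 CPM in the rhesus macaque lines (SD, n = 6 each). Its log2 difference of 0.20, with a standard error of 0.28, did not pass (edgeR adjusted p = 0.579). Without chimpanzee replicate 1 that difference was -0.076. The gene from 41717190 to 41784307, with 15 listed exons, had 97.9 ± 37.1 CPM in the chimpanzee lines and 59.9 ± 25.6 CPM in the rhesus macaque lines. Its log2 difference of 0.70, with a standard error of 0.30, did not pass (edgeR adjusted p = 0.068). It passed without rhesus macaque replicate 6, at 0.88 (edgeR adjusted p = 0.0223), and with counts thinned to the smallest library, at 0.77 (edgeR adjusted p = 0.0423).

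The other neighbours were near the limit of detection. The gene from 40032226 to 40051730 had 0 counts in all chimpanzee lines and from 6 to 44 counts in each rhesus macaque line, 87 in all, and was at least 28.2-fold higher in rhesus macaque against a limit of 3 counts over all chimpanzee lines. Another gene, from 40447377 to 40506755, had 58 counts in the chimpanzee lines and 40 in the rhesus macaque lines, and a single-exon gene from 41678548 to 41679877 had 13 in chimpanzee and 21 in rhesus macaque. Single-exon genes from 40565652 to 40565744 and from 41440857 to 41443096 had 0 counts in chimpanzee, and 2 and 9 counts in rhesus macaque. With no filter on low counts all 10 neighbours entered the test and 4 were called, 1 higher and 3 lower in chimpanzee. The 3 lower ones, which include the nearest gene after UCHL1, had at most 87 counts in rhesus macaque. Over all genes that setting called 6144 of 16903.

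**Figure D5:**
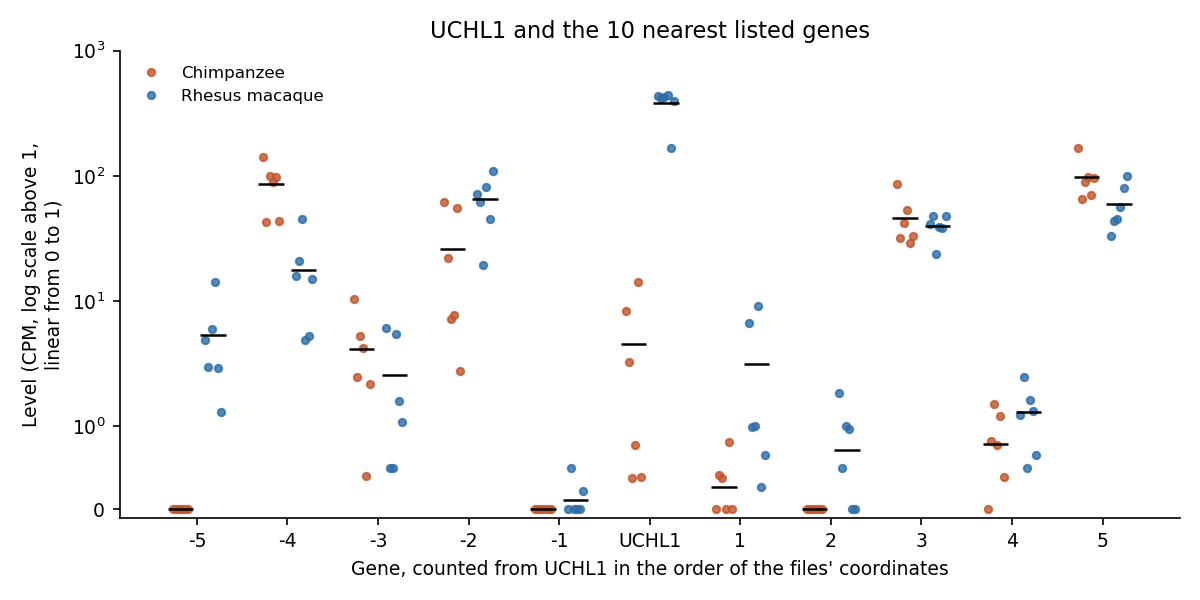
Level of UCHL1 and of the 5 listed genes on each side, in CPM (log scale above 1, linear from 0 to 1), with chimpanzee left and rhesus macaque right at each gene; points are lines and black bars are means. UCHL1 is the gene with the widest gap between the species among those with counts in both, and the gene at position -4 is higher in chimpanzee.

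The genes whose levels most resembled those of UCHL1 were ranked among the 8367 other tested genes that averaged 10 CPM or more. Likeness was the Pearson correlation of log2 CPM across the 12 libraries, given as a description, since all points share their libraries and the 2 species form separate clusters. The nearest, at r = 0.981, was a gene of 30 listed exons on chromosome 5 from 37142087 to 37237668, with 8.19 ± 4.26 CPM in the chimpanzee lines and 55.0 ± 4.36 CPM in the rhesus macaque lines (SD, n = 6 each). Next, also at r = 0.981, was a gene of 20 exons on chromosome 1 from 85300592 to 85367070, with 2.06 ± 2.08 CPM in the chimpanzee lines and 268 ± 95.7 CPM in the rhesus macaque lines. Like UCHL1 it was at the lower end of its range in the chimpanzee females, with 0.640 CPM on average against 3.48 CPM in males. The third, likewise at r = 0.981, was a gene of 3 exons on chromosome 15 from 62819150 to 62828745, with 2.00 ± 2.06 CPM in the chimpanzee lines and 167 ± 37.6 CPM in the rhesus macaque lines. The first gene was likewise lower in chimpanzee females, with 4.76 CPM on average against 11.6 CPM in males. So was the third, with 0.837 CPM in females against 3.17 CPM in males. All 3 separated the species without overlap, in the direction of UCHL1, which the ranking itself favours.

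With the mean of each species taken out, likeness reflects how lines differ within a species, again over 12 libraries and mostly over the chimpanzee lines, where UCHL1 varied most. The highest r, 0.923, was that of a gene of 10 exons on chromosome 10 from 15190299 to 15223571, with 24.7 ± 27.9 CPM in the chimpanzee lines and 1.52 ± 0.681 CPM in the rhesus macaque lines. Its species difference ran opposite to that of UCHL1. It averaged 9.01 CPM in chimpanzee females and 40.5 CPM in males. In rhesus macaque its lowest line was replicate 5, at 0.264 CPM, which is 1 count in that library. The other rhesus macaque lines ran from 1.22 to 1.99 CPM, also close to the limit of detection, so nothing is read from that order. A gene of 7 exons on chromosome 2 from 192251107 to 192260531 followed at r = 0.915, with from 47.9 to 64.6 CPM in chimpanzee females and from 85.3 to 151 CPM in males. The third, at r = 0.901, had 28 exons on chromosome 10 from 79405912 to 79459265, with from 57.9 to 77.4 CPM in chimpanzee females and from 80.8 to 121 CPM in males. The multi-exon gene before UCHL1 ranked 12th by this measure, at r = 0.836.

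The genes most opposed to UCHL1 by this measure were higher in the chimpanzee females. A gene of 3 exons on chromosome 16 from 2033569 to 2036368, at r = -0.913, had from 22.5 to 28.1 CPM in chimpanzee females and from 6.46 to 11.5 CPM in males. A gene of 2 exons on chromosome 10 from 7870099 to 7878124, at r = -0.913, had from 10.8 to 13.9 CPM in females and from 5.58 to 6.56 CPM in males. A gene of 16 exons on chromosome 6 from 33495919 to 33527965, at r = -0.879, had from 70.1 to 98.7 CPM in females and from 31.9 to 54.5 CPM in males. These genes were chosen for their likeness or opposition over the same libraries, so that their split by sex in chimpanzee is not separate evidence for that of UCHL1.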

How the data were processed

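Per the labels' protocols, RNA was extracted with an RNeasy kit, and Illumina libraries, with no step that marks strand, were sequenced on a GAII. Each library's deposited file lists raw counts for its exons, leaving out exons at 0. The sources used here do not give the aligner, counting tool, genome build or exon matching between species. Sample groups came from the labels, and replicate numbers follow accession order.

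Counts were summed per gene and tested with edgeR 4.0.16 (quasi-likelihood test with robust estimation, TMM scaling, R 4.3.3) over 9440 genes that passed the default filter (minimum count 10, minimum total 15, at least 6 libraries). P-values were adjusted over all genes by Benjamini-Hochberg, with a threshold of 0.05. Sex was tested in a fit of 4 groups, species by labelled sex, as female minus male. Log2 CPM used a prior count of 2. DESeq2 1.42.0 was an alternative. The fits were tested on simulated counts. UCHL1 and the genes described were chosen with earlier results of these data known, the neighbours by position and the others by likeness of pattern. Lists of ubiquitin pathway genes and cell type markers need symbols, which 0 identifiers matched, and were not run. No sequences are shown. With 1 to 35 counts per chimpanzee library, UCHL1 levels there are imprecise.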

Additional observations from a re-analysis of the deposited data

Results flagged for a closer look

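Of 18 groups of 6 lines examined for a line far from the others, 2 held one. Chance gives about 1 in 20 only where values are normally distributed, which was not tested. The 2 groups were judged on CPM and not on log2 CPM. UCHL1 was chosen by its measured counts, so that rate does not apply to it. UCHL1 in rhesus macaque replicate 5 stood at 168 CPM, with the next line at 400 CPM. The gene from 41717190 to 41784307, the fifth after UCHL1, stood at 168 CPM in chimpanzee replicate 1, with the next line at 98.6 CPM.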

How the results depend on the processing

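The species difference of UCHL1 kept its direction under all 20 alternatives run. It lay between -7.50 and -6.18 on the log2 scale when lines were left out in turn and between -7.31 (without the strongest exon) and -5.59 (males only) otherwise. The count of called neighbours was 1 of 4, beside 4549 of all 9440 tested genes. It was 4 of 10 with no filter, beside 6144 of 16903 genes. With 10 genes taken on each side it was 4 of the 10 that had enough counts, beside 4549 of 9440 genes. With sex as a covariate it was 2 of 4, beside 4414 of 9440 genes. Counts thinned to the smallest library also gave 2 of 4, beside 4093 of 8704 genes. The number of called neighbours was 1 or 2 with lines left out, of 4 or 5 tested. It was 2 of 4 without chimpanzee replicate 1, beside 4515 of 9656 genes. It was 2 of 5 without chimpanzee replicate 5, beside 4638 of 9642 genes, and without rhesus macaque replicate 6, beside 4789 of 9674 genes. Over all genes 4549 were called, between 4215 and 4789 with lines left out, and 2756 with males only, where fewer lines were tested. The sex difference of UCHL1 in chimpanzee did not pass in the main fit (edgeR adjusted p = 0.383). The gene was chosen with these counts known, so a pass in another setting is no separate support. This difference passed with DESeq2 (-4.16, adjusted p = 0.00254) and without chimpanzee replicate 2, the male nearest to the females (-4.43, edgeR adjusted p = 0.0266). With lines left out it ran from -4.43 to -3.37, with adjusted p from 0.0266 to 0.815. In rhesus macaque it ran from -1.30 to 0.074, reversed without replicate 5. Of the neighbours, the gene from 41631926 to 41652580 reversed to -0.076 without chimpanzee replicate 1, in a range from -0.076 to 0.29 with lines left out. The cause of these changes was not tested. Where 1 line of a sex was left, it was assumed to vary like the other groups. No paired analysis was possible because the replicate numbers only follow accession order and pair no animals. Depth limits the chimpanzee levels of UCHL1, where 3 lines had 1 or 2 counts.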
